A study of Homo sapiens with 6 samples.

Results

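The heat shock proteins and DNAJ chaperones were examined in HK2 cells, a widely used immortalized line from human proximal tubule epithelium. The genes were chosen by symbol: all HSPA, HSPB, HSPH, HSPD, HSPE, HSP90, DNAJA, DNAJB and DNAJC genes of the deposited count table with 10 or more counts in at least 3 samples. The table named 74 such genes of 38100, none of them a pseudogene. 9 had too few counts (DNAJA4, DNAJB8, DNAJC5B, DNAJC5G, DNAJC15, HSPB3, HSPB6, HSPB7 and HSPB9), with at most 11 counts in any sample, and 65 remained. The symbol rule uses no measured difference between the groups, and it also takes in HSPBP1 and HSPBAP1, which bind chaperones and are not chaperones themselves. HSPB11 is counted by its symbol alone, which the RefSeq gene list used here does not hold.

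Cells received either a control virus (AdCtrl) or one carrying SIRT4 (AdSirt4 in the labels, AdSIRT4 here), both adenoviruses, and both groups had been stimulated with TGF-β1, so that no cells without TGF-β1 or without virus were compared. The labels give the genotype of all samples as WT and state neither the dose nor the duration of TGF-β1, and they do not name the promoter that drives SIRT4. Each group had 3 samples, sequenced as poly(A)-selected RNA. The cell-line label carries another number in each sample, whereas the titles name HK2 throughout. The study's reporting form gives technical replicates as the meaning of n in its cell culture work, so the p-values measure the spread between these samples, which may be technical. A fit with 1 residual degree of freedom, given below, measures that spread poorly. Values of a group are given in the order of its replicates 1, 2 and 3.

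Molecular chaperones bind unfolded protein and help it to fold, to assemble or to be degraded. HSP70 proteins bind and release short hydrophobic stretches in a cycle of ATP hydrolysis, which DNAJ proteins (also called HSP40) start and the HSP110 family and other exchange factors close. HSP90 acts later, on kinases and steroid receptors among others, small heat shock proteins hold aggregating protein, and HSP60 with HSP10 forms a folding chamber in mitochondria. Part of the family is switched on by heat and other proteotoxic stress through heat shock factor 1 (HSF1), and another part by the unfolded protein response of the endoplasmic reticulum. In the kidney, tubular epithelial cells are known to induce heat shock proteins after ischaemia.

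SIRT4 (Entrez gene 23409), the gene carried by the virus, had 31, 47 and 57 counts in the AdCtrl samples against 1996, 7995 and 6827 in the AdSIRT4 samples, and the counts do not separate viral from cellular transcripts. Its log2 fold change was 6.36 (SE 0.357, edgeR quasi-likelihood adjusted p = 0.00801, exact permutation p = 0.1, the smallest that 3 samples against 3 allow). Total counts ran from 41537353 to 85684748 per sample. Of 16 epithelial and proximal tubule markers, 9 had a mean FPKM (fragments per kilobase of gene, scaled by library) of at least 1, among them KRT7, KRT18, PAX8 and GGT1, whereas CDH1, PAX2, CUBN, LRP2, SLC34A1, AQP1 and ANPEP were below 1. All 7 endothelial markers and the leukocyte marker PTPRC were below 1, and CD68 and CD14 were above it. Of 5 podocyte markers SYNPO was above 1, and of 8 fibroblast markers COL1A1 and LUM. AdSIRT4 replicate 1 stood apart from the other libraries. Against the other AdSIRT4 replicates its log2 level was higher by 0.67 (median) in the shortest 10% of genes and differed by -0.74 in the longest 10%. Results below are therefore also given without it. What sets this library apart was not tested.

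The chaperone genes spanned a wide range of levels. On the FPKM scale, which allows genes of different length to be compared, HSPB1 (HSP27) had the highest mean over the 6 samples with 610.0 FPKM. It was followed by HSP90AB1 with 423.9, HSP90B1 with 348.7, HSPD1 with 282.7, HSPA8 with 264.7, HSPE1 with 237.6, HSP90AA1 with 218.6 and HSPA5 with 139.1 FPKM. DNAJC8, a nuclear splicing-associated J protein, was the most abundant DNAJ gene at 100.2 FPKM. At the other end HSPA6, the HSP70 that is expressed almost only after strong stress, had 11, 12 and 2 counts in the AdCtrl samples against 6, 19 and 12 in the AdSIRT4 samples. This amounts to a mean of 0.061 FPKM, near the limit of 3 counts that a count of 0 allows. The testis-associated genes DNAJB7, DNAJB13, HSPA2 and HSPA1L and the mitochondrial DNAJC28 also had means under 1 FPKM. Together the 65 genes took 0.906%, 0.901% and 0.846% of the scaled counts in the AdCtrl samples against 1.16%, 0.927% and 0.874% in the AdSIRT4 samples. Apart from AdSIRT4 replicate 1, the ranges of the groups overlapped. How reads that map to several copies were counted is not given in the sources used here, so that HSPA1A and HSPA1B, which are nearly identical, and genes with processed pseudogenes (HSPA8, HSP90AA1, HSP90AB1, HSPD1, HSPE1 and DNAJA1 among them) carry this uncertainty.

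The promoters were searched for a strict form of the DNA elements by which these stress responses are read. In RefSeq promoters of GRCh38.p14, from 250 bases before to 50 bases after a transcription start, 58 of the 65 genes were matched, with 77 starts. A strict heat shock element, written as GAANNTTCNNGAA or its reverse complement TTCNNGAANNTTC, was found in 7 of the 77 promoters (9.09%) and in 0.49% of 35116 promoters of all genes. The 7 genes were HSPA8, HSP90AA1, HSP90AB1, HSPD1, HSPA6, DNAJB6 and DNAJA1, in which the match begins 4 bases after the start and is not shown. The element of the unfolded protein response, written as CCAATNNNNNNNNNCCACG or its reverse complement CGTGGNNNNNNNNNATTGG, was found in HSPA5 and HSP90B1, 2 of 77 promoters (2.60%), and in 0.0769% of all promoters. A match is a description of the letters and not a binding site shown in these cells. A gene without a match may carry an element in another form or outside the stretch searched. Genes without a matched promoter were not searched. The windows below hold up to 8 bases on either side of a match in capitals, and are shown for genes described one by one in the results that follow. HSPD1 also holds an overlapping match 245 bases before the start, and HSP90B1 another match 89 bases before it.
HSPA8, 230 bases before the start (chr11:123062346-123062374, minus strand): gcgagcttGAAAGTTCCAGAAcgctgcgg
HSPA8, 55 bases before the start (chr11:123062171-123062199, minus strand): cgggccccTTCTGGAAGGTTCtaagatag
HSP90AA1, 88 bases before the start (chr14:102087112-102087140, minus strand): gagggttcTTCCGGAAGGTTCgggaggct
HSP90AB1, 165 bases before the start (chr6:44247770-44247798, plus strand): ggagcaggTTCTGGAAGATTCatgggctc
HSP90AB1, 112 bases before the start (chr6:44247823-44247851, plus strand): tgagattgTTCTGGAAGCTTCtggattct
HSPD1, 240 bases before the start (chr2:197500060-197500088, minus strand): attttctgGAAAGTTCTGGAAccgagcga
HSPA5, 66 bases before the start (chr9:125241383-125241417, minus strand): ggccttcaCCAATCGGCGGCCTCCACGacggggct
HSP90B1, 194 bases before the start (chr12:103930208-103930242, plus strand): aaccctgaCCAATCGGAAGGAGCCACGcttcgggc

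The first comparison asked which chaperone genes differed between AdSIRT4 and AdCtrl cells. After Benjamini-Hochberg adjustment over the 17720 genes tested, 0 of the 65 chaperone genes had a p under 0.05 by the edgeR quasi-likelihood test, where 2 genes in all (0.0113%) did. DESeq2 also gave 0, where 1.16% of all genes passed. limma voom with sample quality weights gave 4 (HSPA8, DNAJC2, HSPA4L and DNAJC6), or 6.15%, where 9.51% of all genes passed. At an unadjusted p under 0.05, HSPA8 and DNAJC2 were higher in AdSIRT4 cells, which is 3.08% of the 65 against 4.43% of all genes tested. HSPA4L, HSPB8, DNAJC6, DNAJC27 and DNAJB5 were lower, which is 7.69% against 3.5%. With the replicate number as a block the lower genes were 3, HSPA4L, DNAJC27 and DNAJC6. The groups did not overlap for 9 genes that were higher (13.8%, against 9.66% of all genes) and for 6 that were lower (9.23%, against 9.77%). Fold changes on the log2 scale lay above 0 for 44 of the 65 genes and below 0 for 21, at a median of 0.095 (0.021 over all genes tested).

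In bulk RNA a difference in the kinds of cells present and a difference in RNA per cell cannot be told apart.

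These counts depended on AdSIRT4 replicate 1. Without it, 31 of the 65 genes lay above 0 and 34 below 0 on this scale, and the median was -0.0022. At an unadjusted p under 0.05, 4 genes were then higher (6.15%, against 11.8% of all genes): DNAJB2 and DNAJC11 joined HSPA8 and DNAJC2. The 11 lower genes (16.9%, against 12.5%) were the 5 named above and HSP90B1, HSPB2, DNAJB4, DNAJB9, DNAJC4 and DNAJC22. The adjusted p was under 0.05 for 1 of the 65, HSPA4L (1.54%, against 6.71% of all genes). With the replicate number as a block in addition, 9 were higher (13.8%, against 12.8%) and 12 lower (18.5%, against 13.6%) at an unadjusted p under 0.05, and 10 had an adjusted p under 0.05 (15.4%, against 13.8%). The 10 were HSPA8, DNAJC2 and DNAJC11, which were higher, and HSPA4L, HSPB1, HSPB8, DNAJB4, DNAJB9, DNAJC4 and DNAJC22, which were lower. That fit leaves 1 residual degree of freedom among the samples. AdCtrl replicate 1 has no partner in that fit, so the fold changes rest on the remaining pairs of equal replicate number. The log2 differences of these pairs were 0.36 and 0.51 in HSPA8 and 0.11 and 0.12 in HSP90AB1. The standard errors were nevertheless close, at 0.0514 and 0.0502. The p-values of that fit, here and below, are therefore a poor measure of the spread of a single gene between samples. Genes named in this paragraph outside the list of named genes were chosen after their values had been seen. In the plot of all 65 fold changes the filled points lie to the right of the open ones for the HSP90, HSP60, HSP10 and HSPB genes. In the DNAJC group they lie on either side, to the right for DNAJC19 and to the left for DNAJC13.

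**Figure D1:**
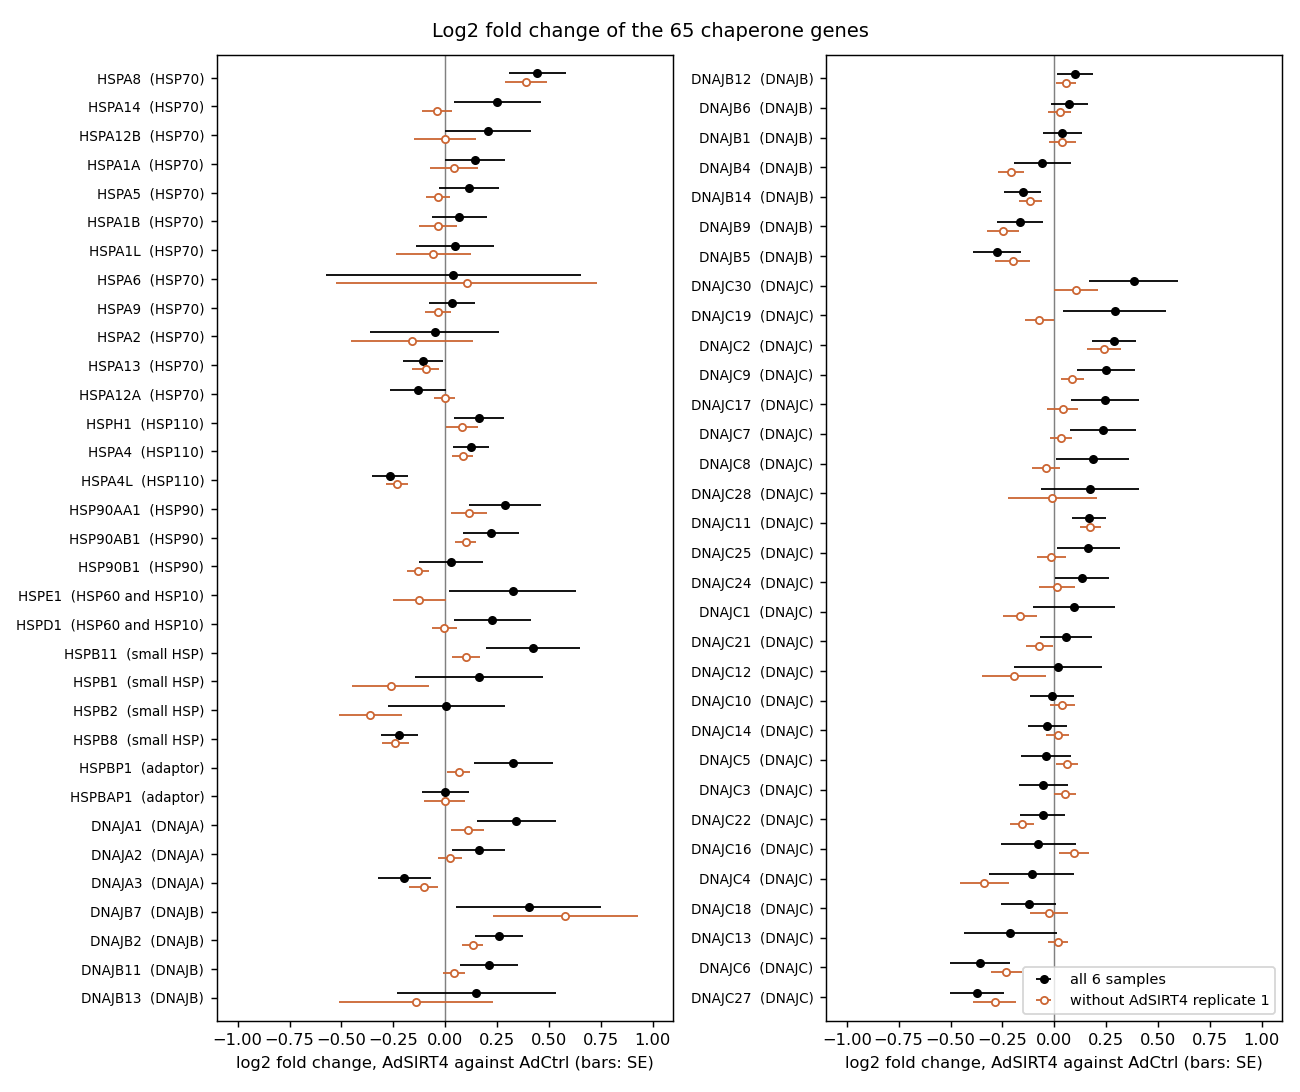
Log2 fold change, positive where AdSIRT4 cells were higher (horizontal axis), for each of the 65 chaperone genes (vertical axis, grouped by family), from edgeR with all 6 samples (filled) and without AdSIRT4 replicate 1 (open); bars are standard errors. HSPA8 keeps its place at 0.44 and 0.39, whereas HSPE1 lies at 0.33 with all samples and at -0.12 without replicate 1.

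HSPA8 (Entrez gene 3312, HSC70, chr11:123057489-123062462 in GRCh38) is the constitutive cytosolic HSP70, which folds new proteins, uncoats clathrin vesicles and delivers proteins to lysosomes, and it was the chaperone gene with the smallest p. Its normalized count was 611.4, 635.4 and 503.1 CPM (counts scaled to a common library size) in the AdCtrl samples against 846.5, 816.1 and 717.6 in the AdSIRT4 samples. The lowest AdSIRT4 sample lay above the highest AdCtrl sample, and replicate 3 was the lowest in both groups. The means were 583.3 ± 70.5 and 793.4 ± 67.4 CPM (SD, n = 3). This was a log2 fold change of 0.44, or 36.0% more (SE 0.138, unadjusted p = 0.0146, adjusted p = 0.545 from edgeR). Within the pairs of equal replicate number the log2 difference was 0.47, 0.36 and 0.51. Without AdSIRT4 replicate 1 it was 0.39 (adjusted p = 0.0600 from edgeR), and with the replicate block in that fit the adjusted p was 2.9e-08 (edgeR, 1 residual degree of freedom). Only the pairs at 0.36 and 0.51 enter the fold change of the latter fit, and its p is a poor measure of their spread. The log2 fold change was 0.43 there, and 0.40 with all 6 samples once the length trend of every library had been taken out. HSPA8 was above 0 in all 20 fits that were run, with a log2 fold change from 0.35 to 0.51. Its unadjusted p was under 0.05 in 19 of these fits. The exception was the edgeR fit without AdCtrl replicate 3, where it was 0.0648.

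The fold changes of the other HSP70 genes lay nearer to 0. HSPA1A, the main stress-inducible cytosolic HSP70, had 210.7, 199.8 and 162.4 CPM in the AdCtrl samples against 238.3, 211.2 and 183.5 in the AdSIRT4 samples. The groups overlapped, and its log2 fold change was 0.14 (SE 0.146). HSPA1B, its near-identical neighbour, gave 0.068 (SE 0.133), and this value was below 0 without AdCtrl replicate 3 and without AdSIRT4 replicate 1. HSPA9 (mortalin), the HSP70 of mitochondria that pulls imported proteins through the inner membrane, had 278.8, 256.5 and 285.4 CPM in the AdCtrl samples against 302.7, 255.2 and 281.5 in the AdSIRT4 samples. Its samples of both groups were interleaved (log2 fold change 0.032, SE 0.110). Of the 12 HSP70 genes, 9 were above 0 with all samples and 4 without AdSIRT4 replicate 1, and HSPA8 was the 1 with an unadjusted p under 0.05 in either fit. Whether HSPA8 differed more than the other HSP70 genes was not tested.

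Of the 3 HSP110 genes, the exchange factors that release substrate from HSP70, HSPA4L lay on the other side. HSPA4L (Entrez gene 22824), known for a role in testis and kidney, had 57.5, 58.2 and 58.0 CPM in the AdCtrl samples against 45.5, 51.0 and 47.8 in the AdSIRT4 samples. All AdSIRT4 samples lay below the AdCtrl samples, which were within 1 CPM of each other. The log2 fold change was -0.27 (SE 0.0870, unadjusted p = 0.0180, adjusted p = 0.555 from edgeR) and -0.23 without AdSIRT4 replicate 1 (adjusted p = 0.0280 from edgeR). HSPA4L is a long gene in these tables, 11.7 kb, and with the length trend of each library removed its log2 fold change was -0.087 (unadjusted p = 0.592 from edgeR). With the length trend removed and AdSIRT4 replicate 1 left out, a fit chosen after seeing the data, it was -0.30 (adjusted p = 0.0109 from edgeR). When 1 sample was left out, its unadjusted p rose above 0.05 without any AdCtrl replicate and without AdSIRT4 replicate 3 (at most 0.0617). HSPH1, which is heat-inducible, had 152.7, 161.2 and 133.5 CPM in the AdCtrl samples against 184.8, 163.5 and 153.0 in the AdSIRT4 samples. Its ranges overlapped (log2 fold change 0.16, SE 0.119).

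Of the 4 genes with an HSPB symbol, 3 were above 0 with all samples. Without AdSIRT4 replicate 1 only HSPB11 was above 0, and HSPB1, HSPB2 and HSPB8 were below. HSPB8, which works with BAG3 to send misfolded protein to autophagy, had 40.1, 41.3 and 43.6 CPM in the AdCtrl samples against 36.5, 36.7 and 34.1 in the AdSIRT4 samples. Each AdSIRT4 sample was below each AdCtrl sample, by a log2 fold change of -0.22 (SE 0.0893, unadjusted p = 0.0426, adjusted p = 0.616 from edgeR). The unadjusted p was 0.0894 with the replicate block (edgeR). Of the 6 edgeR fits that each left out a sample, only that without AdSIRT4 replicate 1 gave one under 0.05, at 0.00343. That fit with the replicate block gave an adjusted p of 0.00238 (edgeR). HSPB1, which caps actin filaments and holds unfolded protein, had 544.2, 566.0 and 440.9 CPM in the AdCtrl samples against 871.1, 499.7 and 364.7 in the AdSIRT4 samples. AdSIRT4 replicate 1 was the highest and AdSIRT4 replicate 3 the lowest of all samples. Its log2 fold change of 0.16 (SE 0.309) became -0.26 without AdSIRT4 replicate 1, and with the replicate block in that fit the adjusted p was 0.00102 (edgeR, 1 residual degree of freedom). HSPB2 and HSPB11, named after their values had been seen to complete the HSPB symbols, had log2 fold changes of 0.0060 and 0.42 with all samples, and -0.36 and 0.10 without AdSIRT4 replicate 1.

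**Figure D2:**
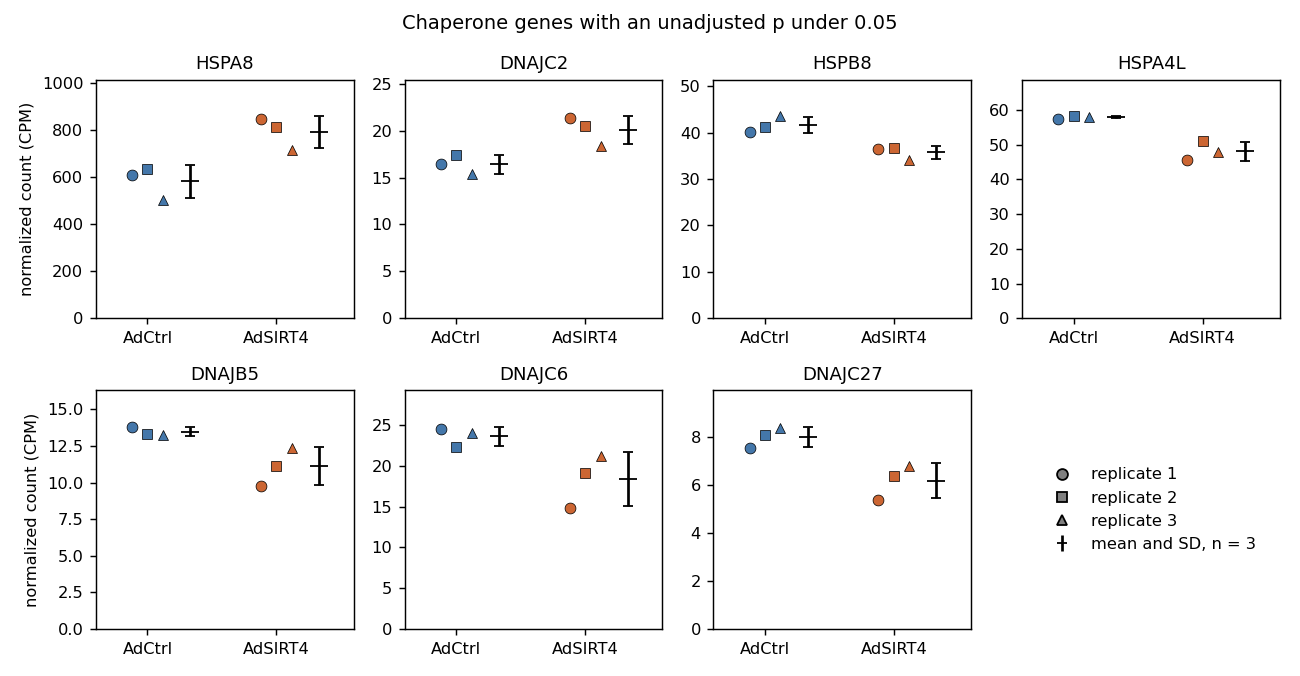
Normalized counts (CPM, vertical axes from 0) of the 7 chaperone genes with an unadjusted p under 0.05, in AdCtrl (blue) and AdSIRT4 (orange) samples; symbols mark the replicate number, and the black bars are the mean and SD of 3 samples. The groups do not overlap in any of the 7 genes, with HSPA8 and DNAJC2 higher and the others lower in AdSIRT4 cells, and replicate 1 is the lowest AdSIRT4 sample in HSPA4L, DNAJB5, DNAJC6 and DNAJC27.

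Among the DNAJ genes, which bring substrate to HSP70 and set its ATPase going, DNAJC2 was higher in AdSIRT4 cells. DNAJC2 (Entrez gene 27000, also called MPP11) sits on the ribosome with HSPA14 and helps HSP70 fold nascent chains. Its normalized count was 16.4, 17.4 and 15.4 CPM in the AdCtrl samples against 21.3, 20.5 and 18.4 in the AdSIRT4 samples. The groups did not overlap, and replicate 3 was again the lowest in each. The log2 fold change was 0.29 (SE 0.104, unadjusted p = 0.0274, adjusted p = 0.600 from edgeR), and 0.24 without AdSIRT4 replicate 1, where the replicate block gave an adjusted p of 0.0423 (edgeR). Without AdCtrl replicate 1, AdCtrl replicate 3 or AdSIRT4 replicate 2 its unadjusted p was 0.0833, 0.107 and 0.0775 (edgeR). HSPA14, its partner on the ribosome, was 17.9 ± 0.527 and 21.4 ± 6.74 CPM (SD, n = 3), where the AdSIRT4 mean rested on replicate 1 with 29.2 CPM.

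The lower DNAJ genes were DNAJC6, DNAJC27 and DNAJB5. DNAJC6 (auxilin), which recruits HSPA8 to clathrin-coated vesicles, had 24.5, 22.3 and 24.0 CPM in the AdCtrl samples against 14.8, 19.2 and 21.2 in the AdSIRT4 samples, a log2 fold change of -0.36 (SE 0.146, unadjusted p = 0.0438 from edgeR). DNAJC27, a small GTPase fused to a J domain, had 7.53, 8.07 and 8.37 CPM in the AdCtrl samples against 5.36, 6.36 and 6.78 in the AdSIRT4 samples, a log2 fold change of -0.37 (SE 0.130, unadjusted p = 0.0245 from edgeR). DNAJB5, a cytosolic J protein, had 13.8, 13.3 and 13.3 CPM in the AdCtrl samples against 9.80, 11.1 and 12.4 in the AdSIRT4 samples, a log2 fold change of -0.28 (SE 0.116, unadjusted p = 0.0484 from edgeR). In all 3 genes AdSIRT4 replicate 1 was the lowest sample, and without it the log2 fold changes were nearer to 0, at -0.23, -0.29 and -0.20. The unadjusted p of DNAJB5 was 0.0737 with the replicate block (edgeR). With 1 sample left out, the p stayed under 0.05 in 2 of 6 fits for DNAJC6, in 3 of 6 for DNAJC27 and in 2 of 6 for DNAJB5. Their adjusted p was between 0.593 and 0.628 with all samples (edgeR).

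DNAJB1, the main heat-inducible partner of HSPA1A, was nearly level across the samples. It had 96.4, 96.0 and 84.9 CPM in the AdCtrl samples against 94.4, 98.1 and 92.5 in the AdSIRT4 samples, a log2 fold change of 0.039 (SE 0.0934). DNAJA1, a farnesylated partner of HSPA8 and HSP90, had 173.1, 181.5 and 151.1 CPM in the AdCtrl samples against 276.9, 192.0 and 172.8 in the AdSIRT4 samples. Its log2 fold change was 0.34 (SE 0.189) with AdSIRT4 replicate 1 and 0.11 without it. Of the 25 DNAJC genes 14 were above 0 and 11 below, with a median of 0.055, and without AdSIRT4 replicate 1 13 were above with a median of 0.014. Of the 11 DNAJB genes 7 were above and 4 below, with a median of 0.073, and without AdSIRT4 replicate 1 6 were above with a median of 0.025.

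Both cytosolic HSP90 genes had higher means in AdSIRT4 cells, without an unadjusted p under 0.05 in the edgeR fit of all 6 samples. HSP90AB1, the constitutive form, had 1161, 1150 and 1133 CPM in the AdCtrl samples against 1544, 1238 and 1229 in the AdSIRT4 samples. The groups did not overlap. The log2 fold change was 0.22 (SE 0.136, unadjusted p = 0.149 from edgeR), and it was 0.099 without AdSIRT4 replicate 1. HSP90AA1, the inducible form, had 756.3, 794.0 and 650.6 CPM in the AdCtrl samples against 1095, 846.4 and 747.1 in the AdSIRT4 samples. Its ranges overlapped through AdSIRT4 replicate 3, and its log2 fold change of 0.29 (SE 0.173) was 0.11 without AdSIRT4 replicate 1. With the replicate block in that fit the unadjusted p was 0.00760 for HSP90AA1 and 0.0377 for HSP90AB1 (edgeR). For HSP90AB1 it was 0.0379 with the length trend removed from all 6 samples. Neither gene had an adjusted p under 0.05 in any of the 20 fits.

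In mitochondria, the folding chamber genes HSPD1 (HSP60) and HSPE1 (HSP10), which share 1 promoter region on chromosome 2, were high in AdSIRT4 replicate 1 alone. HSPD1 had 697.4, 677.3 and 641.7 CPM in the AdCtrl samples against 1016, 697.4 and 648.1 in the AdSIRT4 samples. HSPE1 had 150.5, 139.8 and 115.9 CPM in the AdCtrl samples against 260.1, 136.6 and 112.8 in the AdSIRT4 samples. In replicates 2 and 3 both genes were within 0.05 log2 units between the groups. Their log2 fold changes were 0.23 (SE 0.186) and 0.33 (SE 0.307) with all samples, and -0.0033 and -0.12 without AdSIRT4 replicate 1. DNAJC19, a J protein of the import motor, followed the same course with 0.29 and -0.072. SIRT4 itself is best known as a mitochondrial sirtuin. Of the 9 mitochondrial chaperone genes, 7 were above 0 with a median of 0.17, and without AdSIRT4 replicate 1 2 were above 0 with a median of -0.033. None had an unadjusted p under 0.05 with all samples (edgeR). Without AdSIRT4 replicate 1, DNAJC11 was higher and DNAJC4 lower at that threshold (edgeR), where 11.8% and 12.5% of all genes were. With the replicate block in that fit both had an adjusted p under 0.05 (edgeR, 1 residual degree of freedom), where 13.8% of all genes did. Both are named after their values had been seen.

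In the endoplasmic reticulum, HSPA5 (BiP), the main HSP70 of this compartment, had 598.2, 572.9 and 636.0 CPM in the AdCtrl samples against 775.5, 583.8 and 596.1 in the AdSIRT4 samples. Its log2 fold change was 0.11 (SE 0.145), and -0.035 without AdSIRT4 replicate 1. HSP90B1 (GRP94) had 1100, 1117 and 1082 CPM in the AdCtrl samples against 1353, 1034 and 979.6 in the AdSIRT4 samples. Its log2 fold change was 0.029 (SE 0.153) with all samples and -0.13 without AdSIRT4 replicate 1 (unadjusted p = 0.0276, adjusted p = 0.151 from edgeR). DNAJB9 (ERdj4), a target of XBP1 that binds HSPA5, had 22.6, 21.2 and 24.8 CPM in the AdCtrl samples against 22.5, 19.2 and 19.5 in the AdSIRT4 samples. Its log2 fold change was -0.17 (SE 0.111, unadjusted p = 0.177) and -0.25 without AdSIRT4 replicate 1 (unadjusted p = 0.00880, edgeR), where the replicate block gave an adjusted p of 0.0216 (edgeR). DNAJC3 (P58IPK), which damps the kinase PERK, gave -0.053 (SE 0.119). Over the 13 genes of this compartment, 6 were above 0 and 7 below, with a median of -0.011, and none had an unadjusted p under 0.05 with all samples (edgeR). Without AdSIRT4 replicate 1, 5 were above and 8 below with a median of -0.026. Of the 13, 2 were then lower at an unadjusted p under 0.05 (edgeR), where 12.5% of all genes were. With the replicate block 4 were lower, where 13.6% of all genes were.

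**Figure D3:**
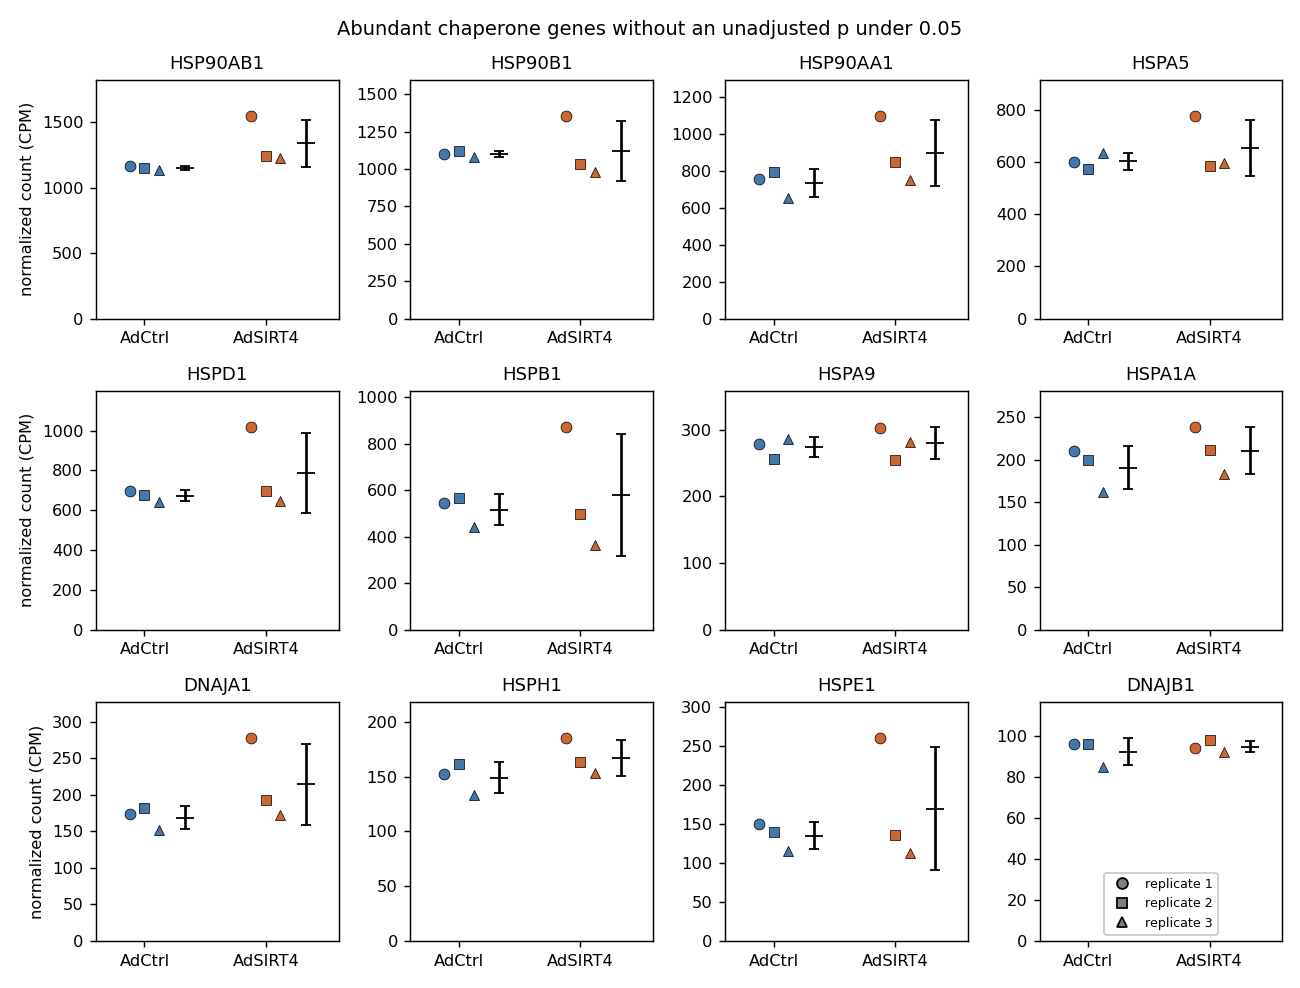
Normalized counts (CPM, vertical axes from 0) of 12 abundant chaperone genes without an unadjusted p under 0.05, in AdCtrl (blue) and AdSIRT4 (orange) samples; symbols mark the replicate number, and the black bars are the mean and SD of 3 samples. In HSPD1 and HSPE1, AdSIRT4 replicate 1 (circle) lies far above the other samples, while AdSIRT4 replicates 2 and 3 lie among the AdCtrl samples.

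AdSIRT4 replicate 1 followed gene length among the chaperones in the same direction as over all genes. Its log2 difference from the other AdSIRT4 replicates was above 0 in all 11 chaperone genes shorter than 2 kb, with a median of 0.81 and a range from 0.44 in DNAJB11 to 1.07 in HSPE1. The median was 0.32 in the 35 genes from 2 to 4 kb and -0.13 in the 19 genes of 4 kb or more, where DNAJC13 had -0.86. Over all tested genes the medians of the same bins were lower in each bin, at 0.55, 0.15 and -0.33. Across the 65 genes the Spearman correlation of this difference with length was -0.71, and it was -0.26 for AdCtrl replicate 1. These correlations run across genes of 1 library, which are not independent, and the bins were set after the values had been seen. HSPA8 is 2.58 kb long by these tables and differed by 0.15 in AdSIRT4 replicate 1, and HSPB8, at 2.13 kb, differed by 0.046.

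A list of 18 genes labelled heat-inducible also holds HSPA8 and HSP90AB1, described above as constitutive, and HSPA1L, described above as testis-associated. Of the 18 genes 15 were above 0 with a median log2 fold change of 0.13, and without AdSIRT4 replicate 1 10 were above 0 with a median of 0.032. All 6 genes of the nucleus and ribosome (DNAJC2, DNAJC8, DNAJC9, DNAJC17, DNAJC21 and HSPA14) were above 0 with a median of 0.25, and without that library 3 were above 0 with a median of 0.0013.

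A further pattern ran between replicates and not between groups. The list of 18 genes labelled heat-inducible, HSPA8, HSP90AB1 and HSPA1L included, was written with earlier results of these data known. Of these 18 genes, 14 were lowest in replicate 3 in both groups (77.8%). The same held for 12 of the 47 other chaperone genes (25.5%) and for 15.9% of all tested genes. The 4 exceptions were HSPA1L, HSPA4, HSPA4L and HSPB8. The median log2 ratio of replicate 3 to replicate 2 in the 18 genes was -0.22 in AdCtrl and -0.13 in AdSIRT4 cells, against 0.0015 and -0.0016 over all genes. HSPB1 was among the lowest, at -0.36 and -0.45. HSPA8 had -0.34 and -0.19, HSPA1A -0.30 and -0.20, HSP90AA1 -0.29 and -0.18, and DNAJB1 -0.18 and -0.08. HSP90AB1, at -0.022 and -0.011, and DNAJB6, at -0.013 and -0.023, were nearly level and are among the 14. Across the 65 genes the ratios in the 2 groups had a Pearson correlation of 0.47 and a Spearman correlation of 0.55, and across the 18 genes 0.79 and 0.82. The points share the same 4 libraries, and HSPA6, with few counts, is among the 18. The labels do not say what a replicate number stands for, and what sets replicate 3 apart was not tested. This pattern was noticed after the values had been seen and is a description.

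**Figure D4:**
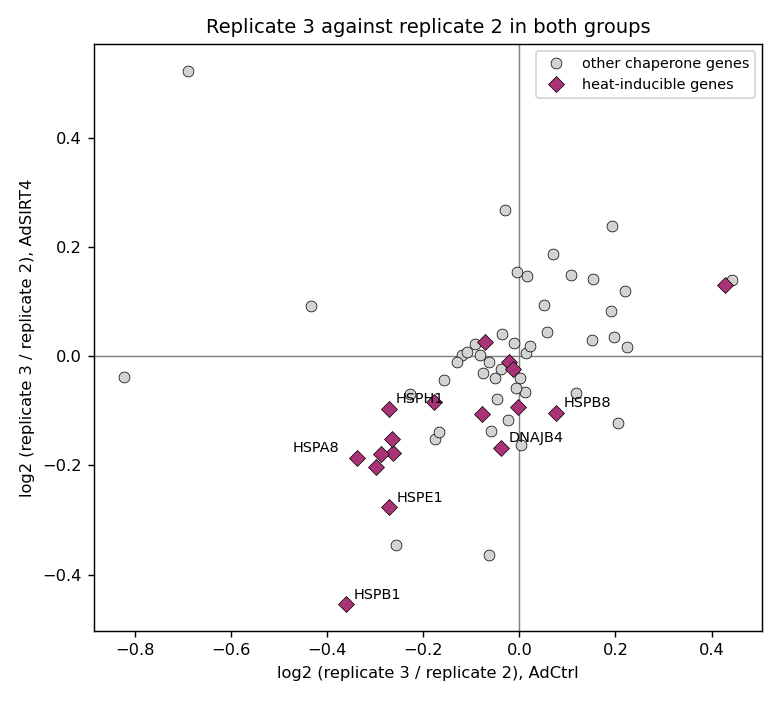
Log2 ratio of replicate 3 to replicate 2 in AdCtrl (horizontal axis) and AdSIRT4 cells (vertical axis) for the chaperone genes, with the genes listed as heat-inducible as diamonds and others as circles; HSPA2 and HSPA6, 2 genes with few counts, lie outside the plotted range. Most diamonds lie below 0 on both axes, with HSPB1 at -0.36 and -0.45.

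The genes that work with these chaperones were read from lists of the pathway. No gene of any list had an adjusted p under 0.05 in edgeR's test of all 6 samples. Of 13 heat shock factors and HSF1 regulators, 7 were above 0 and 6 below, and HSF4 was the 1 with an unadjusted p under 0.05. Over all genes tested, 4.43% were higher and 3.5% lower at that threshold (edgeR). HSF4, a heat shock factor best known from the lens, had 15.5, 15.6 and 15.5 CPM in the AdCtrl samples against 23.5, 18.6 and 18.1 in the AdSIRT4 samples. The groups did not overlap (log2 fold change 0.37, SE 0.125, unadjusted p = 0.0214, adjusted p = 0.578 from edgeR), though with any AdCtrl replicate left out its unadjusted p was between 0.0616 and 0.0658. HSF1 itself, named here after its values had been seen, gave -0.055 (SE 0.0971). Of 16 HSP90 cochaperones, 10 were above 0 and 6 below. ITGB1BP2 (melusin) was higher at very low levels, with 14, 14 and 13 counts in the AdCtrl samples against 20, 36 and 40 in the AdSIRT4 samples (log2 fold change 0.75, SE 0.282, unadjusted p = 0.0318 from edgeR). FKBP5, a glucocorticoid-induced cochaperone of steroid receptors, was lower, with 65.7, 59.4 and 58.0 CPM in the AdCtrl samples against 41.2, 50.05 and 54.1 in the AdSIRT4 samples (log2 fold change -0.33, SE 0.124, unadjusted p = 0.0322 from edgeR). With the replicate block the unadjusted p was 0.0691 for ITGB1BP2 and 0.0568 for FKBP5.

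The remaining lists had no gene with an unadjusted p under 0.05 in the fit of all 6 samples. Of 14 subunits of TRiC and prefoldin, which fold actin and tubulin, all 14 were above 0 with a median of 0.26. Without AdSIRT4 replicate 1, 8 were above and 6 below 0 with a median of 0.013. Of 13 HSP70 cochaperones 8 were above 0, of 20 genes of mitochondrial proteostasis 15, of 20 folding factors and stress genes of the endoplasmic reticulum 15, and of 17 other heat shock response genes 11. Without AdSIRT4 replicate 1 these counts were 6, 9, 5 and 6. In that fit the adjusted p was under 0.05 for HSF2BP (log2 fold change 0.47) and for IER5 (-0.34), PFDN5 (-0.23) and HTRA2 (-0.33). Over all genes tested in it, 1227 passed, or 6.71% (edgeR). These 4 genes are named after their values had been seen.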

How the data were processed

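Poly(A)-selected RNA of 6 HK2 samples (AdCtrl and AdSIRT4, 3 each, all with TGF-β1) had been sequenced. The submitters' processing notes name fastp 0.21.0, HISAT2 2.1.0, StringTie 2.1.5, DESeq2 1.30.1 and hg38, and the annotation is not given in the sources used here. The authors deposited whole-number counts per gene, not normalized, and a second table whose unit was taken to be FPKM from the values themselves. Gene lengths were taken from the ratio of both tables.

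Counts were tested with edgeR 4.0.16 (R 4.3.3): filterByExpr (minimum count 10), TMM, robust quasi-likelihood test, Benjamini-Hochberg adjustment over 17720 genes, threshold 0.05. CPM were computed from each sample's total over the genes tested, scaled by TMM. Before filter and scaling the totals were 41537353 to 85684748 counts. Samples of equal replicate number deviated together (Pearson r of 0.178, 0.159 and 0.176 across genes, against -0.188 to 0.030 for the others), and the number was used as a block in an alternative. The deviations were taken from the mean of each group and cancel within it, so the values of the others are not independent of these. Other alternatives were DESeq2 1.42.0, RLE scaling, other filters, removal of the length trend, limma 3.58.1 (voom with sample weights, and log2(FPKM + 1) or log2(FPKM + 0.1)) and leaving out samples. The fit without AdSIRT4 replicate 1 and with the length trend removed was chosen after seeing the data. The code was tested on simulated data. Promoters come from RefSeq (GRCh38.p14).

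The chaperone genes and all lists were chosen with earlier results of these data known. Named were genes with an adjusted p under 0.05, up to 10 higher and 10 lower with the smallest unadjusted p under 0.05, 18 defining chaperones, and up to 3 genes of each partner list with an unadjusted p under 0.05. Others are said to be chosen after their values were seen.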

Additional observations from a re-analysis of the deposited data

How the results depend on the processing

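Over the 19 alternatives to the fit of all 6 samples, the median log2 fold change of the chaperone genes moved by less than 0.11, the SD of the median between replicates. That SD is larger than the median with all 6 samples, 0.095, so a fall of the median to 0 would also lie within it. The median was lowest, at -0.0022, without AdSIRT4 replicate 1, and highest, at 0.154, without AdSIRT4 replicate 3. Fold changes were above 0 for HSPA8, DNAJC2, HSPA1A, HSPH1, HSP90AA1, HSP90AB1 and DNAJA1, and below 0 for HSPA4L, HSPB8, DNAJC6, DNAJC27, DNAJB5 and DNAJB9, in all 20 fits. The causes of the changes below were not tested. Genes of few counts, such as HSPA6, limit what any fit can show.

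The number of chaperone genes higher at an unadjusted p under 0.05 was 2. It was 7 with the length trend removed (10.8%, against 7.55% of all genes), 8 with the replicate block added to that (12.3%, against 7.48%), 4 in voom (6.15%, against 14%), and 6 without AdSIRT4 replicate 1 and with the length trend removed (9.23%, against 12.5%). With samples left out it was 0 to 9 (0% to 13.8%, against 2.06% to 12.8% of all genes). The number lower was 5, and it was 3 for all genes with at least 1 count (4.62%, against 2.24%), 3 with the replicate block (4.62%, against 3.12%), 9 in voom (13.8%, against 13.3%), 2 in each limma fit on FPKM (3.08% or 3.39%, against 2.64% to 4.08%), and 11 without AdSIRT4 replicate 1 and with the length trend removed (16.9%, against 11.8%). It was 0 to 12 with samples left out (0% to 18.5%, against 1.6% to 13.6% of all genes). The number with an adjusted p under 0.05 was 0, and it was 4 in voom (6.15%, against 9.51%) and 4 without AdSIRT4 replicate 1 and with the length trend removed (6.15%, against 7.58%). This number was 0 to 10 with samples left out (0% to 15.4%, against 0% to 13.8% of all genes). SIRT4 had a log2 fold change of 4.88 in limma on log2(FPKM + 1) (adjusted p = 0.0847) and of 6.10 to 6.59 with samples left out, where its adjusted p from edgeR was above 0.05 without AdCtrl replicates 1, 2 and 3 (0.0559, 0.203 and 0.186). The replicate block, with all 6 samples, changed no other call among these results.

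For the 26 named genes, 18 of the alternative values passed an adjusted p of 0.05 where the fit of all samples did not, and 46 changed sign. None of the sign changes but that of HSPB1 (0.00102) had an adjusted p under 0.05. Without AdSIRT4 replicate 1 the log2 fold change was -0.035 for HSPA5, -0.13 for HSP90B1, -0.0033 for HSPD1, -0.12 for HSPE1, -0.26 for HSPB1, -0.072 for DNAJC19, -0.033 for HSPA1B, -0.033 for HSPA9 and 0.051 for DNAJC3. With the replicate block in that fit it was -0.038 for HSPA5, -0.13 for HSP90B1, -0.041 for HSPE1, -0.23 for HSPB1, -0.022 for DNAJC19, -0.018 for HSPA9 and 0.042 for DNAJC3. With the length trend removed in it, it was -0.036 for HSPA5, -0.12 for HSP90B1, -0.014 for HSPE1, -0.17 for HSPB1, -0.0061 for DNAJC19, -0.0089 for HSPA1B, -0.042 for HSPA9 and 0.028 for DNAJC3. In voom it was -0.023 for HSPA5, -0.10 for HSP90B1, -0.044 for HSPE1, -0.15 for HSPB1, -0.069 for DNAJC19, -0.056 for HSPA9 and 0.040 for DNAJC3. With the length trend removed from all 6 samples it was -0.031 for HSPB1 and 0.016 for DNAJC3, and with the replicate block in addition -0.045 for HSPB1, 0.016 for DNAJC3, -0.0041 for HSP90B1 and -0.0022 for DNAJB1. In limma on log2(FPKM + 1), with or without genes under a mean FPKM of 1, it was -0.020 for HSP90B1 and -0.0044 for HSPA9, and on log2(FPKM + 0.1) -0.020 and -0.0045. Without AdCtrl replicate 2 it was -0.013 for HSPA9, and without AdCtrl replicate 3 -0.019 for DNAJB1 and -0.019 for HSPA1B. With samples left out, the highest values of these genes were 0.193 for HSPA5 and 0.0997 for HSPA9 and 0.457 for DNAJC19 (without AdSIRT4 replicate 2), 0.118 for HSP90B1, 0.35 for HSPD1, 0.55 for HSPE1 and 0.406 for HSPB1 (without AdSIRT4 replicate 3) and 0.071 for DNAJB1 (without AdCtrl replicate 1).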
